A study of Drosophila melanogaster with 12 samples.

Results

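The replication-dependent histone genes of *Drosophila melanogaster* were taken as every entry of the deposited ovary RNA sequencing table whose symbol starts with His1:, His2A:, His2B:, His3: or His4:. The table holds 18039 features, of which 14303 are genes, and 64 of these genes met the rule. A later annotation of the same genome assembly lists 111 such copies. The other 47 have no entry in the table and were not analysed here for expression. Histone variants and histone pseudogenes were left out of the set.

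Ovary RNA was read in 2 genotypes, from females aged 4 days, with 3 libraries per genotype. The *D1* mutant carried the allele *D1* Kyoto over *D1* Bsc666, a chromosomal deficiency that spans *D1*, and the study's methods name the mutant allele *D1* LL03310. The control carried *D1* Kyoto over the balancer TM6C and was thus heterozygous. Both genotypes also carried a mutation of *chk2*, which encodes a checkpoint kinase, so the controls are not wild type. The sample labels give about 5 ovaries and the study's methods about 5 pairs of ovaries for each sample. Each library thus pools animals or ovaries, and ovaries hold germ cells and follicle cells together. *D1* encodes a protein that binds satellite DNA, and the study asked whether its loss changes the RNA of transposable elements. The series description speaks of testes where the sample labels speak of ovaries. All 11 ovary genes chosen as markers have an entry, but so do all 6 testis genes and 14241 of 17873 annotated genes, so the levels are given. The 6 germline genes had mean normalized counts from 834.8 for *grk* to 36523 for *nos*, and the 5 follicle cell genes from 645.5 for *tj* to 141711 for the eggshell gene *Cp36*. The 6 testis genes had means between 0.994 and 11.2. The labels give the cell type as germline, yet *Cp36* is a gene of follicle cells, so the samples hold both.

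The value available for each copy is its mean normalized count over all libraries, as the authors computed it. It joins both genotypes and carries no spread, and the depth of the libraries is unknown. No comparison between *D1* mutant and control was therefore made for the histone copies, and the level of *D1* itself could not be used to check the labels. Differences between copies and between classes are given as levels, without a test.

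Replication-dependent histones are the bulk packaging proteins of chromatin. H2A, H2B, H3 and H4 form the core of the nucleosome, and the linker histone H1 binds the DNA between cores. Their genes are transcribed in S phase. In place of a poly(A) tail, their mRNAs end at a conserved stem-loop that the stem-loop binding protein recognises and that the U7 small nuclear ribonucleoprotein helps to cut. In flies the 5 genes recur together in tandem repeat units. In the ovary, nurse cells and follicle cells copy their DNA many times without dividing, and the egg is stocked with histones for the early embryo. The libraries were depleted of rRNA and not selected for poly(A), which allows such mRNAs to be read.

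All 111 annotated copies lie on chromosome arm 2L between bases 21416953 and 21541681 of BDGP6, a stretch of 125 kb, and none lies outside it. Each is a single exon with no intron. The copies fall into 23 units, each taken here to begin at its H1 gene. Within a unit H1, H2A and H3 copies lie on the forward strand, and H2B and H4 copies on the reverse strand. H2A is missing from units 1, 3 and 5, and H4 from the last unit, which gives 23 copies of H1, 20 of H2A, 23 of H2B, 23 of H3 and 22 of H4. A roo retrotransposon of 9135 bases stands between units 5 and 6. In each of units 1, 3 and 5, a histone pseudogene lies on the forward strand between H2B and H4, where H2A stands in other units. Another histone pseudogene, which holds a pogo transposon, lies on the reverse strand of the last unit. It stands between H2A and H3, where other units have H4.

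The 3′ stem-loop was present in every annotated copy, with or without an entry in the table, and it is shown because it marks these mRNAs as the replication-dependent kind. It was found as 6 paired bases on each side of the loop TTTC, with 1 unpaired position allowed and G-T counted as a pair. Capitals mark stem and loop, and lower case the 5 bases on either side, all from the reference sequence in the sense of the mRNA.
H1, all 23 copies: aaacaAGTCCTTTTCAGGGCTacaac
H2A, all 20 copies: caaacCGTCCTTTTCAGGACGaccaa
H2B, 22 copies: aaaacGGCCCTTTTCAGGGCCacaat
H2B, His2B:CG17949: aaaacGGCCCTTTTCAAGGCCacaat
H3, all 23 copies: taatcGGTCCTTTTCAGGACCacaaa
H4, all 22 copies: caatcGGTCCTTTTCAGGACCaccat
H3 and H4 shared the stem and the loop to the base. The H1 stem holds 1 G-T pair. His2B:CG17949, which has no entry in the table, was the only copy with an unpaired position, made by the substitution G464A, counted from the first base of the annotated transcript. The stem began 34 bases after the stop codon in H2B, 35 in H4, 49 in H3, 54 in H2A and 84 in H1.

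The 100 bases before the annotated transcript start also differed by class, and 1 copy of each of 3 classes is shown because its mean was the highest of its class. Capitals mark TATAAA, the core of the TATA box, and GAGAGA, the repeat that GAGA factor and CLAMP bind, each searched on both strands. Overlapping matches are joined.
His1:CG31617, chr2L:21421755-21421854, forward strand: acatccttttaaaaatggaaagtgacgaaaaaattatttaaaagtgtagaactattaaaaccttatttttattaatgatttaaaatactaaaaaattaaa
His2A:CG31618, chr2L:21423637-21423736, forward strand: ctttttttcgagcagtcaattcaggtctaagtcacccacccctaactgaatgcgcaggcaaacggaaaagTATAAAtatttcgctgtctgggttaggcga
His3:CG33824, chr2L:21469450-21469549, forward strand: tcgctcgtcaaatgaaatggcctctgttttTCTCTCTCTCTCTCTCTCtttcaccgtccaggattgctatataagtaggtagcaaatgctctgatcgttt
TATAAA stood in this window of all 20 H2A copies, all 23 H2B copies and 17 of 22 H4 copies, and in 20.1% of the windows of 13968 protein-coding genes. No H1 or H3 copy held exactly these letters. Near forms, such as the TATATAAG in the H3 window shown, were not searched for. GAGAGA stood in all 23 H3 copies and 17 of 22 H4 copies, against 5.26% of the protein-coding genes, and in no H1, H2A or H2B copy. The annotated transcripts of His4:CG33875, His4:CG33873, His4:CG33871 and His4:CG33869 are longer, at 526 or 528 bases against an H4 median of 413. They begin so near the H3 gene that their windows reach into the H3 transcript. The H4 counts may therefore depend on the annotated starts. These matches describe the letters of the window and were not tied to any measured binding.

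The histone copies took a small part of the counts in the table. Their means summed to 11478 of 45622313 normalized counts on genes, or 0.0252%. Since 47 copies have no entry and reads shared by copies may be counted once, several times or not at all, this is a share of counted reads and not of the RNA in the ovary. A single H2B copy supplied most of it. The median over the 64 copies was 43.3, against 360.4 over all genes, without length scaling. Per kb of exon, the medians were 81.8 over the copies and 215.8 over all genes with a known length. A mean of at least 100 was reached by 8 copies, or 12.5%, against 58.2% of all genes. These 8 copies carried 83.0% of the histone counts. At the other end, 3 copies had a mean under 1.

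H2B had the largest sum of any class, 5906, which is 51.5% of the histone counts. H2B pairs with H2A in the nucleosome. Of its 23 copies only 2 have an entry. His2B:CG33868, in the last unit, had a mean of 5906, and His2B:CG33910, in the first unit, had a mean of 0.704, the second lowest of all 64 copies. His2B:CG33868 alone carried nearly the whole class, so the summed level per kb fell from 9927 to 1.18 without it. Its annotated transcript is found in no other copy. It differs from the commonest one of H2B by C429A and C514T, both in the annotated 3′ untranslated region. The coding sequence was the same in all 23 copies. C514T lies beyond the stem-loop, where these mRNAs end, so it may not be part of the mature mRNA. C514T also stands in a set of 6 other copies, whereas C429A is in no other. In His2B:CG33868, 150 of the 446 windows of 150 bases were found nowhere else in the genome.

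H1 was the second class by sum, 2285, and 11 of its 23 copies have an entry. The linker histone is the most divergent class in sequence, with 12 distinct transcripts among its copies. His1:CG31617 had a mean of 834.4 and His1:CG33813 one of 687.6, although their transcripts are identical. His1:CG33801 followed at 357.4 and His1:CG33834 at 127.4. His1:CG33855 and His1:CG33858 stood at 96.9 each. His1:CG33810 was lower, at 46.6, and His1:CG33861 lower still, at 33.8. The remaining copies, His1:CG33825, His1:CG33828 and His1:CG33831, shared the lowest value of the class, 1.38.

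H2A summed to 2163, and all 20 copies have an entry. His2A:CG31618, in the second unit, had a mean of 1074 and so carried 49.7% of the class. Every other H2A copy lay between 43.3 and 70.4. The class therefore consisted of 1 high copy and 19 copies within a narrow band, and no copy was near 0. The median was 64.3. A small noncoding RNA gene of 36 bases, one of the sncRNA:430 series, lies inside the coding part of each H2A copy on the same strand. The first reads
sncRNA:430a, chr2L:21423876-21423911, forward strand: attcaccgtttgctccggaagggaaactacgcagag
It is shown because reads of the H2A mRNA can lie on the same bases. Of the 20 annotated, 17 have an entry, with means from 1.83 to 4.13.

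H3 summed to 997.2, and all 23 copies have an entry. This is the core histone whose tail carries many of the marks of heterochromatin. His3:CG33824 had the highest mean, 376.8, followed by His3:CG33815 at 160.6. His3:CG33827 and His3:CG33830 had 82.8 each, and His3:CG33866, the last copy of the array, had 57.7. The lowest were His3:CG33818 and His3:CG33821 at 3.71 each. The median, 10.7, was that of His3:CG33812, and the other copies lay between 10.1 and 31.4.

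H4 had the lowest sum, 125.5, with 8 of 22 copies in the table. His4:CG33901 was the highest at 31.3, so no H4 copy approached the leading copies of the other classes. His4:CG33895 had 29.3, and His4:CG33893 and His4:CG33891 had 28.6 each. His4:CG33899 and His4:CG33897 stood at 3.07 each. His4:CG33909 had 0.898. His4:CG31611 had 0.618, which is also the lowest mean of any feature in the table.

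**Figure D1:**
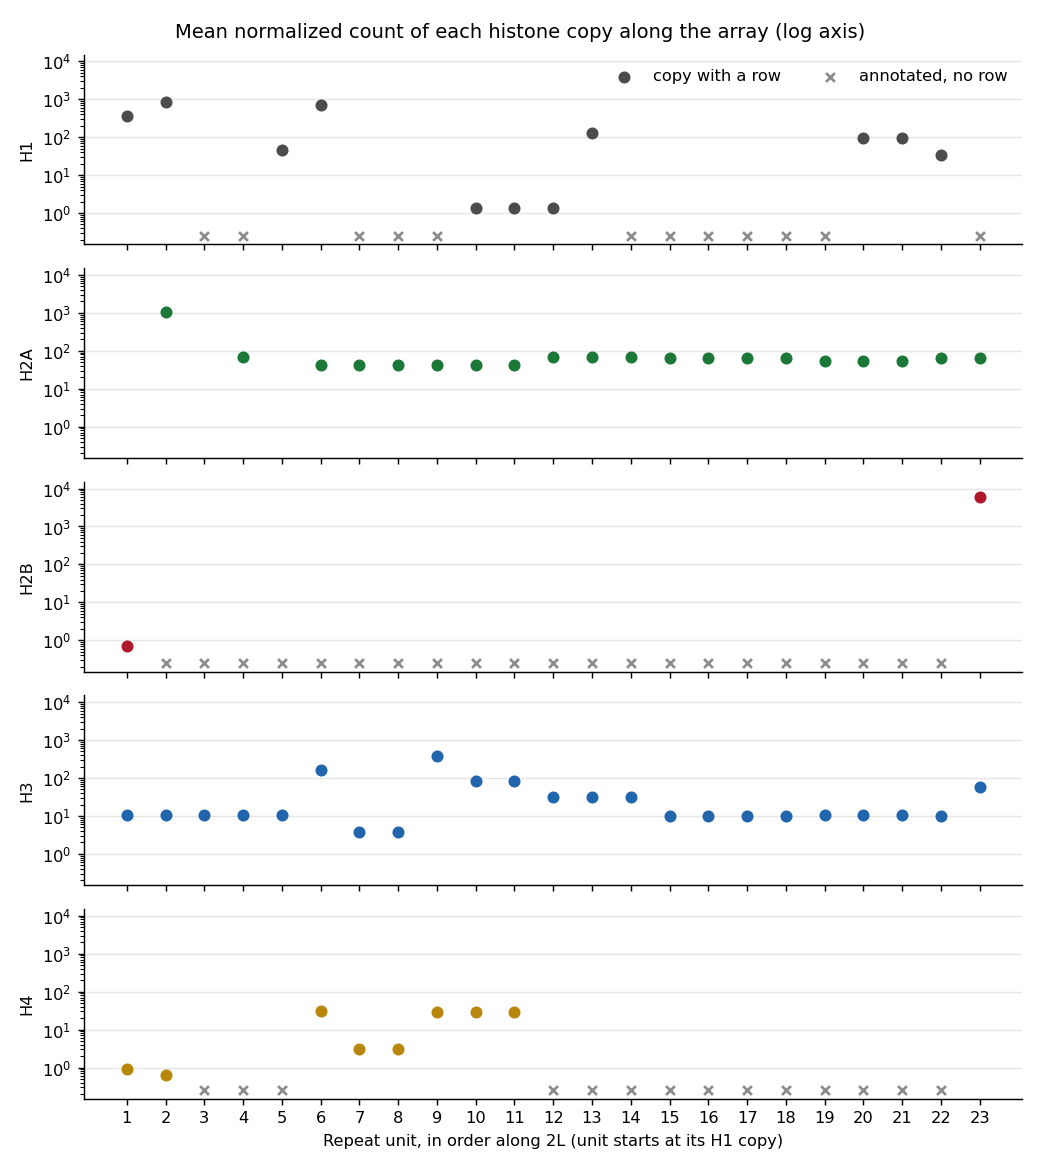
Mean normalized count over all libraries (log axis) of each annotated histone copy, one panel per class, against its repeat unit in order along the array. Filled points are copies with an entry and grey crosses, placed at an arbitrary low height, are copies without one. The H2B copy of unit 23 stands at 5906 and the H2A copy of unit 2 at 1074, while the other H2A copies form a flat row between 43.3 and 70.4.

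By unit, the summed means ran from 10.7 in unit 3 to 6028 in unit 23, with a median of 103.1. Unit 23 held 52.5% of the histone counts through its H2B copy, and unit 2 held 16.7% through its H1 and H2A copies. Unit 6 came next with 8.04%, from His1:CG33813 and His3:CG33815. Copies with an entry were not spread evenly along the array. H4 copies with an entry lay only in units 1, 2 and 6 to 11, and the H2B entries only in the first and the last unit.

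Copies were then compared with those of the same class, since most share their sequence. The 111 copies had 12 distinct annotated transcripts in H1, 7 in H2B, 6 in H4, 4 in H2A and 2 in H3. Against the commonest transcript of its class, 28 distinct substitutions were found among transcripts of equal length. Of these, 15 lay in annotated untranslated regions, 6 were synonymous and 7 change an amino acid. The annotated H2B transcripts run past the stem-loop, and C504T, C514T and G563T lie beyond it. Among copies with an entry, those with a changed amino acid were His1:CG33801 by G347A, His1:CG33834 by T233G, T317G and G808A, His1:CG33855, His1:CG33858 and His1:CG33861 by G808A, and His2A:CG33853, His2A:CG33856 and His2A:CG33859 by A107G. The means of these copies are given with their classes, and the 3 H2A copies had 54.1 each. All H3 copies encode 1 protein, and so do all H2B copies.

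A single substitution splits H3 into its 2 transcripts, and the stretch around it is shown because the leading H3 copy carries it. The capital is the substituted base, G288A, which is synonymous.
His3:CG33803, chr2L:21420386-21420445, forward strand: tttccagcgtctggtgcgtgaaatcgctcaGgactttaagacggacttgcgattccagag
His3:CG33824, chr2L:21469807-21469866, forward strand: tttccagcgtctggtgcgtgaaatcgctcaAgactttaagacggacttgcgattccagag
The first form is shared by 18 copies with means from 10.1 to 160.6, and the second by 5 copies with means from 3.71 to 376.8. The ranges of the 2 forms overlap. H4 has a similar split by G122A, also synonymous. The 5 copies with the second H4 base, in units 7 to 11, had means from 3.07 to 29.3, and the 3 copies in the table with the first base had means from 0.618 to 31.3.

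Means that were equal to every deposited digit were common among the copies. There were 14 groups of copies with an equal mean, holding 38 of the 64 copies. Of the members with a mean of at least 10, 31 of 54, or 57.4%, shared their value with another gene, against 1.90% of 10689 other genes at that level. The largest group was of 6 H2A copies at 43.3, in units 6 to 11. In 13 of the 14 groups the copies were neighbours in the array, and the exception was a group of 4 H3 copies at 10.1 in units 16 to 18 and 22. In each of the 14 groups the transcripts were identical. Of 286 pairs of same-class copies with different transcripts, 0 had an equal mean.

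An identical transcript did not imply an equal mean. Among 241 same-class pairs with the same transcript, 41 had the same mean and 200 did not. Of the 10 sets of identical transcripts with at least 2 copies in the table, 7 held more than 1 value. In the H3 set with the second base, means ran over 101-fold from His3:CG33818 to His3:CG33824. In the H2A set of 7 copies, His2A:CG31618 was 24.8-fold above its 6 identical relatives, which had a single value. The identical H1 copies His1:CG31617 and His1:CG33813 differed by 1.21-fold. The 9 copies of the largest H2A set, by contrast, stayed between 64.3 and 70.3.

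**Figure D2:**
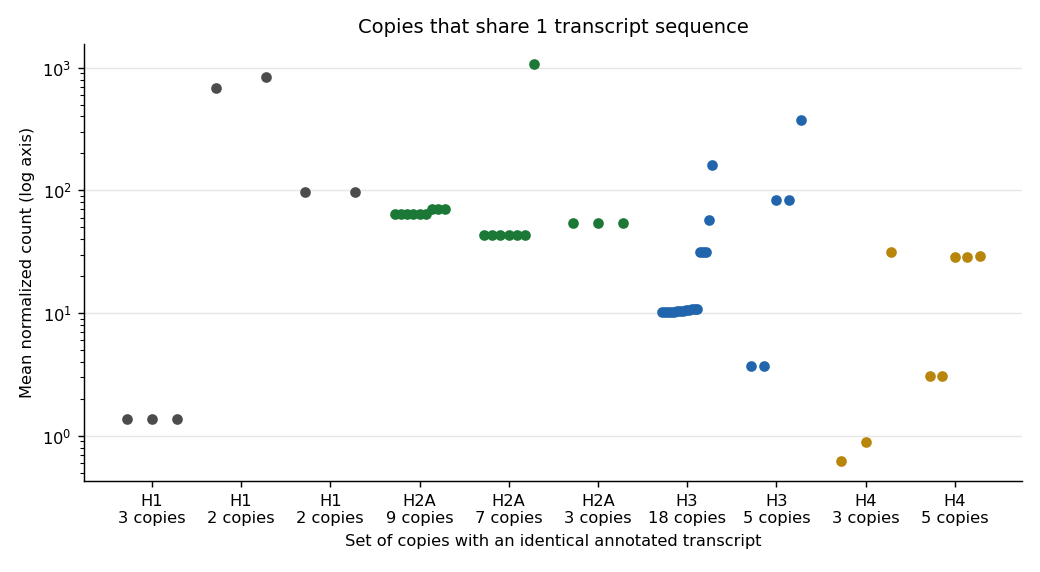
Mean normalized count over all libraries (log axis) of copies grouped by identical annotated transcript, with 1 point per copy and sets coloured by class. The H2A set of 9 copies is flat between 64.3 and 70.3, whereas the H3 set of 5 copies runs from 3.71 to 376.8.

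The identity often ran beyond the transcript. Of 48 pairs of copies that were identical in the transcript and in at least 500 bases on each side, 19 had unequal means, and 10 of these were over 5-fold apart. His3:CG33824 and His3:CG33827 were identical over the 6000 bases compared on each side, yet their means were 376.8 and 82.8. His3:CG33821, at 3.71, shared 3331 bases before the transcript and 6000 after it with His3:CG33824. His2A:CG31618 and His2A:CG33814, at 1074 and 43.3, shared 591 bases before and 910 after. A read pair inside such stretches fits each of these copies equally well in the reference sequence. The level of a single copy therefore cannot be read as the transcription of that copy, and how far shared reads set these levels was not tested.

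Few copies could be told from all others inside the transcript. A window of 150 bases, the read length, was found at exactly 1 place in the genome for only 3 of the 64 copies with an entry. These were His2B:CG33868, His1:CG33801, in 260 of 874 windows, and His1:CG33834, in 234 of 874. Together they carried 55.7% of the histone counts, nearly all of it from His2B:CG33868. Another 5 copies with such windows have no entry, among them His2B:CG17949, with 132 of 446 windows. In 22 of the 64 copies every window was found at more than 10 places, and this held for 15 of the 47 copies without an entry. The rank correlation between the mean and the percentage of windows at 1 place was 0.33 over the 64 copies. It is given as a description, because 61 copies share the value 0 and copies of a class share reads.

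The classes were compared with one another and with histone variants per kb of exon, since the genes differ in length. The summed level was 9927 counts per kb for H2B, 4388 for H2A, 2234 for H1, 1885 for H3 and 304.0 for H4. The classes thus spanned 32.7-fold, although the nucleosome holds the core histones in equal number. H2A, the second class, was 14.4-fold above H4. The median over copies with an entry was also taken in place of the sum. It was 4963 for H2B, 130.3 for H2A, 94.7 for H1, 38.4 for H4 and 20.1 for H3. H4 then stood above H3, but its median rests on 8 of 22 copies and that of H3 on all 23. No feature had a mean of 0, so copies without an entry may have had few or no counted reads. Low values for them would lower the medians of H1, H2B and H4. The H2B median is only the midpoint of 2 copies, at 9925 and 1.18 counts per kb, and describes neither. The highest and lowest classes lay further apart by medians than by sums. H2A, at 3.40-fold above H4, was closer to it than by sums. The order and the span thus depend on how copies are combined, and the medians also on which copies have an entry. Entries are missing for most H1, H2B and H4 copies and reads are shared, so these are levels of counted reads.

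The variant histones, which are encoded outside the array, had more counted reads per kb than the summed classes they stand in for. Each variant is a single gene, whereas the array copies share reads, and the part of this in the gaps was not tested. *His3.3A* and *His3.3B*, which encode the replacement H3, had 10139 and 22304 counts per kb, or 5.38-fold and 11.8-fold the summed H3 copies. *His2Av*, the H2A variant of flies, had 20482, which was 4.67-fold the H2A class. *His4r*, which encodes H4 from a gene with introns, had 27666, or 91.0-fold the H4 class, of which 8 of 22 copies have an entry, none with a window of 150 bases found at only 1 place. *BigH1*, the linker histone of the germline and early embryo, had 16910, or 7.57-fold the H1 class. *cid*, the centromeric H3, had 2422. Per kb of coding sequence the same ratios were 10.2 for *His3.3A*, 57.1 for *His3.3B*, 10.2 for *His2Av*, 175.4 for *His4r* and 6.86 for *BigH1*. The counts cover whole exons, so this division raises genes with long untranslated regions. *His3.3B* has 408 coding bases of 2552 in exons, against 408 of 529 for the array H3 copies. Without length scaling, the 6 variants summed to 138255 normalized counts, 12.0 times the sum over the array copies.

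**Figure D3:**
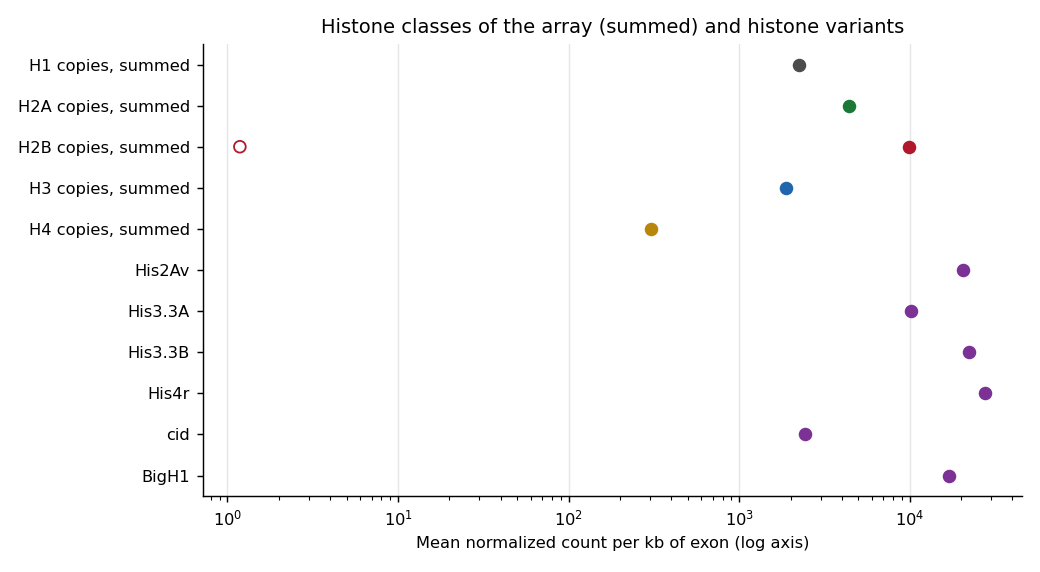
Mean normalized count per kb of exon (log axis) for each class of the array, summed over its copies with an entry, and for 6 histone variants in purple. The open red point is H2B without His2B:CG33868, at 1.18, against 9927 with it, and every variant lies above H1, H3 and H4.

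Factors that transcribe and process histone mRNA all have an entry, 18 of 18, as do 14241 of 17873 annotated genes. All but *Clamp* and *snRNA:U7* lay between 445.1 and 2589 counts per kb. The median was 976.3, against 215.8 over all genes with a known length. *mxc* and *mute*, whose products build the histone locus body, had 525.8 and 1297 counts per kb. *Slbp*, the stem-loop binding protein, had 1589. *Lsm10* and *Lsm11*, the Sm-like proteins particular to U7, had 954.7 and 584.1, and *FLASH*, which joins them, had 445.1. The processing subunits *Sym*, *Cpsf73*, *Cpsf100* and *CstF64* had 969.9, 2589, 1085 and 1553. The highest was *Clamp*, which binds GA repeats of the H3 and H4 promoters, at 4422. The lowest was the RNA *snRNA:U7*, at 68.4, from a mean of only 4.86 normalized counts on 71 bases.

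Among other regulators, *abo*, a negative regulator of histone transcription, had 1410 counts per kb, *Hinfp* had 893.0, and *Trf2*, which serves the H1 promoter, had 600.1. *Spt6*, an elongation factor, had 568.4. *CycE* and *Cdk2*, the kinase pair that starts S phase, had 982.6 and 1247.

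Histone chaperones carry and deposit the proteins. The 14 genes listed as such all have an entry. Their median, 3123 counts per kb, was higher than that of the processing factors. The nucleoplasmin-type *Nlp* and *Nph* had 31793 and 25539, and *Nap1*, a chaperone of H2A and H2B, had 23471. *Nopp140*, which is on the list but encodes a nucleolar protein and not a classical histone chaperone, had 12488. The small subunit of chromatin assembly factor 1, which other complexes share, had 9623. *asf1*, a chaperone of H3 and H4, had 5461, and *Nasp* had 1913. The middle and large subunits of the same factor, which couples assembly to replication, had 2528 and 590.7. *Hira* and *yem*, which deposit the replacement H3, had 1140 and 1378. *Ssrp* and *dre4*, the subunits of FACT, had 3718 and 1301. *CG5017*, named *mil* in the annotation, was the exception at 9.57.

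**Figure D4:**
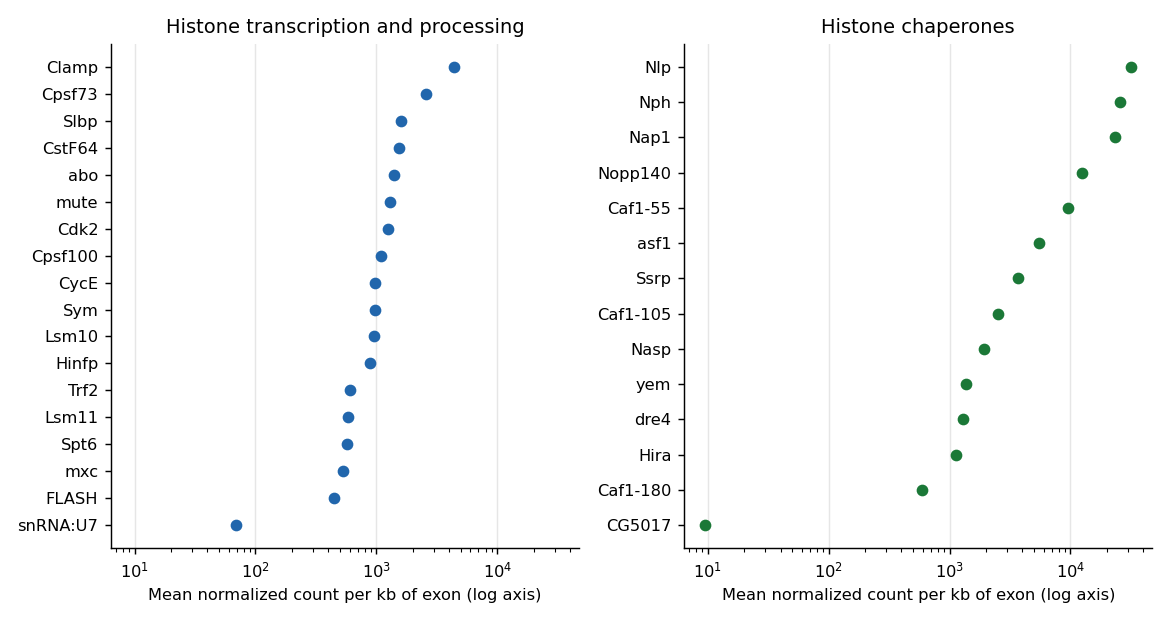
Mean normalized count per kb of exon (log axis) for 18 genes of histone transcription and mRNA processing (left) and 14 genes listed as histone chaperones (right), each list ordered by level. *snRNA:U7* at 68.4 and *CG5017* at 9.57 are the low ends, and *Clamp* at 4422 and *Nlp* at 31793 the high ends.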

How the data were processed

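Per the sources, the authors cleaned reads with BBTools, aligned them with STAR to BDGP6/dm6, counted genes and transposons with TEtranscripts and ran DESeq2 1.37.4. How reads that fit several copies were counted, and whether strand was used, is not given in the sources used here. The deposited table holds 1 signal that was used: the authors' mean normalized count over all libraries. Its other numeric columns hold the authors' comparison of mutant with control (log2 fold change, standard error, statistic, p-value, adjusted p-value), with marks for changed genes. These are the study's own findings and were not used, so the genotypes were not compared. Values per library were not analysed here, and neither were the 6 small RNA libraries. The count test set out in the design could therefore not be run. The depth per library is unknown, and no value carries an error.

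Of 18049 entries, 9 without a feature name and 1 repeated identifier were dropped. Members and lists were chosen with earlier results of these data known. Positions and exon lengths come from an Ensembl annotation of the same assembly, later than the version that the study's methods name. It was matched by FlyBase identifier for all 64 copies and for 14241 of the 14303 genes. Lengths and transcript starts may differ from those the authors used. Sequences come from RefSeq. All 111 annotated copies were compared as strings. Windows of 150 bases were counted over the genome on both strands. The rule of counting was tried on simulated repeats with separate code, and the genome search itself was not tested. Levels per kb divide by the union of exons. Copies named are, in each class, the highest, the median and the lowest, those whose protein differs from the commonest, and the genes of the lists. Other copies named were chosen after their values were seen. Alternatives were coding length, the median over copies, the share without the 10 most abundant genes, a minimum mean of 10, and other windows. Python 3 scripts used pandas, scipy and Biopython.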

Additional observations from a re-analysis of the deposited data

How the results depend on the processing

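The classes added together had 18737 counts per kb. Per coding kb this was 27647, and with the median over copies with an entry in place of the sum 5247. Without His2B:CG33868, chosen after its value was seen, the sum was 8812. Of the 5247, 4963 came from the H2B median, which is the midpoint of 2 copies. The share of gene counts, 0.0252%, became 0.0270% without the 10 most abundant genes, 0.0251% with copies of a mean of at least 10, and 0.0122% without His2B:CG33868. The rank correlation of the mean with windows at 1 place, 0.33 at 150 bases, was 0.33 at 100 and at 75 bases and 0.17 with 1 mismatch allowed. Added after the data were seen, it was 0.29 at 300 bases and 0.16 with windows that reach in from the flank, where 10 of the 64 copies have such a window. These values rest on few copies and say nothing of the others: 3 copies were above 0 at 75 to 150 bases and 1 copy, His1:CG33834, with 1 mismatch allowed. No paired analysis was possible because the deposited values join all libraries and carry no replicate number. Leaving out a library, the replicate block and the other alternatives planned for a test between genotypes were not run for the same reason. An unknown depth limits the low copies most, since no error can be set beside a mean under 1. Whether the flies of the study carry the array as the reference assembles it was not tested.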
